A study of Mus musculus with 7 samples.

Results

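Interferon response genes were examined in sorted mouse intestinal crypt cells marked by Bmi1. The members were 43 gene symbols, chosen by name, of the 37310 genes in the count table. They matched 44 Ensembl IDs, because Psmb9 stands under 2. A filter on low counts left 41 symbols for testing, and these are called the measured members. The others were Iigp1, an immunity-related GTPase, and Psmb9, an immunoproteasome subunit. Iigp1 had 12 counts in NWD1 replicate 3, 2 in NWD2 replicate 1, 7 in NWD2 replicate 2 and 0 in the other 4 libraries. Both IDs of Psmb9 had 0 counts in every library. How reads shared by overlapping genes were counted is not given in the sources used here, so these zeros are not taken as a level.

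All mice were BmicreERT2, Rosa26RFP: a tamoxifen-inducible Cre recombinase is driven by Bmi1, a Polycomb gene, and turns on a red fluorescent protein. They were fed a diet from weaning until the age of 3 months. Sorted crypt cells were strongly red, Epcam-positive and CD45-negative, and were sequenced in bulk. The purified control diet AIN76A had 2 libraries, both from males. NWD1, a purified Western-style diet known to be rich in fat and poor in calcium, vitamin D3 and methyl donors, had 3 libraries, of which replicate 2 was from a female and the others from males. NWD2, known as the same diet with more calcium and vitamin D3, had 2 libraries from males. The labels name the diets without their composition, and do not say whether libraries are separate animals. The p-values therefore measure only the spread between these samples, which may be technical. They also do not say how the Cre was induced, and cells that have left the crypt base can keep the red label, since the reporter is permanent.

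Total counts were 39657707 to 77959407 in 6 libraries and 14034315 in NWD1 replicate 3, whose rare transcripts are therefore the least precisely counted. Both AIN76A libraries and NWD1 replicates 1 and 2 carried the i5 library index N503, and the other 3 carried N504. One column of the TPM table is headed as NWD2 replicate 3, a title that no sample has, whereas no TPM column bears the title of NWD1 replicate 3. Whether that heading belongs to NWD1 replicate 3 is not stated, so the diet of NWD1 replicate 3 is not certain. The values under that heading were left out. Median fold changes of the members are also given without NWD1 replicate 3 where they differ, but those of the pathway and marker lists are not. Bmi1 itself was at 2.11 to 5.24 CPM (counts as a share of each library's total, on the CPM scale with TMM scaling). That scaling set the values of NWD2 replicate 2 at 1.25 times those from total counts alone, and those of the other libraries at 0.915 to 1.05 times. The order of libraries is therefore also given with total-count scaling for the main counts over members and for some single genes. That alternative was added after the data were seen. Other orders are given with TMM scaling only and may not hold without it. Epcam was at 225 to 1337 CPM, lowest in NWD2 replicate 2. Ptprc, which encodes CD45, was at 1.17 to 5.75 CPM.

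Type I interferons (alpha and beta) and type III interferons (lambda) bind separate receptors, whose kinases phosphorylate transcription factors that include Stat2. Together with Irf9, Stat2 is part of a complex that binds the interferon-stimulated response element in the promoters of its many target genes. Type II interferon (gamma) acts mainly through a different promoter site. The products detect viral nucleic acid, block translation of viral RNA, tag proteins with Isg15, hold virions at the membrane, and load peptides onto MHC class I. Intestinal epithelium is known for its response to interferon lambda and for low homeostatic interferon signalling.

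Promoter sequence was at hand for 32 of the 43 symbols, in windows of 250 bases before to 50 after the RefSeq start (GRCm38.p6). The core of the response element, searched as GAAANNGAA on both strands, was in the windows of 19 of the 32 genes. By window the share was 52.8% of the 36 windows of these genes, against 8.56% of all 32851 windows. A palindromic motif, searched as TTCNNNGAA, was in 10 of the 32 genes, or 27.8% of their windows against 8.3% of all. Matches of the core can overlap each other and the palindromic motif. A match is a run of letters, not a measured binding site. The 60 bases below are shown because the results turn on these genes. In the first 4, both NWD2 libraries were above the other 5 with TMM scaling, and with total-count scaling in Ifit3 and Rsad2 only. In the last 4, under both scalings, AIN76A replicate 1 and NWD2 replicate 1 were above the other 5. All lie before the start, read 5′ to 3′ on the gene's own strand, with matches of the core in capitals.
Ifit1 (chr19:34640780-34640839, plus strand): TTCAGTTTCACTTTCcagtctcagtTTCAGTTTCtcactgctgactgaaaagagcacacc
Ifit3 (chr19:34583402-34583461, plus strand): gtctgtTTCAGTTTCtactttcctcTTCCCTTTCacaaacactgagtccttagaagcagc
Rsad2 (chr12:26456537-26456596, minus strand): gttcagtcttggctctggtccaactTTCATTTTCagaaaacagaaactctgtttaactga
Oas3 (chr5:120777694-120777753, minus strand): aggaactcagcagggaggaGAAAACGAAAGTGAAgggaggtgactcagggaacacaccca
Isg15 (chr4:156200850-156200909, minus strand): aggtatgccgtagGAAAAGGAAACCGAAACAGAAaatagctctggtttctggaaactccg
Oas1a (chr5:120907526-120907585, minus strand): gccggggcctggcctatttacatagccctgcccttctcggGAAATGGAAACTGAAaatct
Bst2 (chr8:71537562-71537621, minus strand): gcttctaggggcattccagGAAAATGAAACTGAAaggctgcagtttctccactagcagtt
Irgm1 (chr11:48871421-48871480, minus strand): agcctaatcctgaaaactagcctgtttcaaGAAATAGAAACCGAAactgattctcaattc

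In Isg15 the core occurred 3 times in direct succession, the last beginning 66 bases before the start, and in Ifit1 3 times on the opposite strand. No match was found in the windows of Irf7, Oasl1, Oasl2 and Xaf1, which says only that these letters are not in these windows.

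Per transcript length, the members covered a wide range of levels. In the 6 libraries with a usable TPM column (a share of transcripts that corrects for gene length), the highest was Lgals3bp, a secreted glycoprotein, with a median of 406 TPM and a range of 338 to 460. Next came Ifi35 at a median of 143 TPM, Ifitm3 at 105 and Irf1 at 103, whose ranges of 108 to 151, 41.9 to 224 and 77 to 117 overlapped. Irf7 followed at 82.3 TPM, Psmb8 at 79.7, Isg15 at 67.9, Oasl1 at 62.3 and Ifit1 at 48.9. The lowest measured members were Gbp2 at 0.279 and Mx1 at 0.177 TPM. The cells therefore held transcripts of the Isg15, Ifit and Oas families on every diet, the control diet included. In these bulk samples fewer cells of a type and less RNA per cell cannot be told apart.

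Among the signalling factors, Irf7, the factor that amplifies interferon production, was highest in NWD2. It measured 148 and 103 CPM on AIN76A, 79.5, 127 and 122 on NWD1, and 213 and 186 on NWD2. Both NWD2 libraries were above the other 5, under total-count scaling too. Stat2 measured 15.2 and 15.5 CPM on AIN76A, 9.68, 20.6 and 29.7 on NWD1, and 24.6 and 33.4 on NWD2. NWD2 was thus above AIN76A but overlapped NWD1, through NWD1 replicate 3 alone. With total-count scaling NWD1 replicate 3 was above both NWD2 libraries. Irf9, the DNA-binding partner of Stat2, was at 46.5 to 80.8 CPM over the 7 libraries and Irf1, a transcription factor known for its induction by interferon gamma, at 190 to 273, with the highest value of each in NWD2 replicate 2. With total-count scaling the highest Irf9 was in NWD1 replicate 2 and the highest Irf1 in NWD1 replicate 3.

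All 4 sensors of foreign nucleic acid were measured. Ddx58 (RIG-I), which binds viral RNA ends, measured 39.4 and 55.5 CPM on AIN76A, 32.1, 53.9 and 62.8 on NWD1, and 48 and 92.6 on NWD2. Its high value came from NWD2 replicate 2 alone. Ifih1 (MDA5), the sensor of long double-stranded RNA, was at 37.1 and 38.4 CPM on AIN76A, 29.1, 46.6 and 54.6 on NWD1, and 45.7 and 67.9 on NWD2. With total-count scaling its highest value was in NWD1 replicate 3. Dhx58 (LGP2), a regulator of both, was at 10.8 to 26.8 CPM and Zbp1, a sensor of Z-form nucleic acid, at 14.7 to 39.8. NWD1 replicate 1 was the lowest library for all 4 sensors.

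Isg15, the ubiquitin-like protein that is conjugated to other proteins, measured 37.5 and 19.3 CPM on AIN76A, 15, 23 and 28.9 on NWD1, and 56.7 and 33.9 on NWD2. Its AIN76A and NWD2 values overlapped, while both NWD2 values were above all 3 of NWD1, an order that total-count scaling did not keep. Usp18, which removes Isg15 and dampens receptor signalling, had its highest value, 34.1 CPM, in NWD2 replicate 1 and was at 9.57 to 22.3 in the others. The remaining enzymes had their highest value in the other NWD2 library. Parp14, an ADP-ribosyltransferase, measured 27.3 and 28.9 CPM on AIN76A, 16.4, 43.3 and 68.4 on NWD1, and 39.5 and 92.7 on NWD2. Dtx3l, the ubiquitin ligase that partners Parp9, measured 71 and 99.9 CPM on AIN76A, 49.5, 111 and 140 on NWD1, and 117 and 194 on NWD2. Parp9 and Trim25, a ligase that acts on RIG-I, were at 177 and 138 CPM in NWD2 replicate 2, against at most 131 and 100 in the other 6 libraries. With total-count scaling Parp9 was at 141 CPM in NWD2 replicate 2 and also in NWD1 replicate 3. Trim25 was then at 110 CPM in NWD2 replicate 2 and 106 in NWD1 replicate 2.

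Of the 9 RNA effectors, 6 had both NWD2 libraries above both of AIN76A, an order that 13.2% of all genes tested had. With total-count scaling it was again 6, against 8.59%. Both NWD2 libraries were above all 3 of NWD1 for 6 of the 9, against 10.8% of all genes, but with total-count scaling for 1, Ifit3, against 2.45%. Ifit1, which binds RNA lacking cap methylation, measured 52.7 and 44 CPM on AIN76A, 21.8, 83.6 and 63.3 on NWD1, and 136 and 105 on NWD2. Ifit3, its partner, measured 15 and 10.5 CPM on AIN76A, 5.81, 13.1 and 11.6 on NWD1, and 22.6 and 23.1 on NWD2. Both genes had the lowest value in NWD1 replicate 1, and each NWD2 library above the other 5. With total-count scaling that last order held for Ifit3 but not for Ifit1. Ifit2 was at 6.9 and 6.14 CPM in NWD2 and at 1.72 to 6.33 elsewhere.

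Oas3, a 2′-5′-oligoadenylate synthetase that activates RNase L, measured 13.9 and 12.9 CPM on AIN76A, 3.49, 17.6 and 28 on NWD1, and 30.4 and 28.6 on NWD2. NWD1 replicate 3 thus came within 1 CPM of NWD2, and with total-count scaling it was above NWD2 replicate 2. Oasl1, a relative without synthetase activity that represses Irf7 translation, measured 71 and 66.2 CPM on AIN76A, 45.5, 99.8 and 80.5 on NWD1, and 101 and 161 on NWD2. Oasl2 was at 158 and 124 CPM in NWD2 and at 39.8 to 110 elsewhere. With total-count scaling its value in NWD2 replicate 2 was below those of NWD1 replicates 2 and 3.

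Oas1a followed another order, with 80 and 29.8 CPM on AIN76A, 18.5, 25.1 and 36.8 on NWD1, and 75.3 and 42.1 on NWD2. Its highest value belonged to a control library. With total-count scaling NWD2 replicate 1 was highest, at 76.8 against 76.1 CPM in AIN76A replicate 1. Oas1a has near-identical neighbours such as Oas1g, at 36.9 and 13.5 CPM on AIN76A, 6.1, 13 and 14.9 on NWD1, and 34 and 21.5 on NWD2, so the split of reads between them is uncertain, as it is within the Ifit and Gbp families. Oas2 was at 1.22 to 4.7 CPM, highest in NWD2 replicate 1 and lowest in NWD2 replicate 2. Eif2ak2 (PKR), the kinase that stops translation, was at 16.8 to 26.4 CPM.

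The membrane and other effectors did not share 1 pattern. Rsad2 (viperin) measured 6.79 and 5.87 CPM on AIN76A, 1.45, 9.57 and 8.76 on NWD1, and 17.4 and 16.2 on NWD2. Its NWD2 mean of 16.8 ± 0.872 CPM (SD, n = 2) stood against 6.33 ± 0.644 (SD, n = 2) for AIN76A. The NWD1 mean was 6.59 ± 4.47 (SD, n = 3). Bst2, Ifitm3, Ifi44, Rtp4 and Xaf1 had AIN76A replicate 1 and NWD2 replicate 1 above the other 5 libraries. Ifi35 was at 160 and 93.3 CPM on AIN76A, 98, 126 and 97.2 on NWD1, and 128 and 153 on NWD2.

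Bst2 (tetherin), which holds budding virions, measured 32.8 and 11.2 CPM on AIN76A, 8.87, 12.3 and 13.2 on NWD1, and 29.7 and 12 on NWD2. Ifitm3, which blocks viral entry, measured 48.6 and 33.1 CPM on AIN76A, 37.7, 32.3 and 19.4 on NWD1, and 79.8 and 17.4 on NWD2. The 2 NWD2 libraries thus held its highest and its lowest value. Ifi44 was at 11 and 3.65 CPM on AIN76A, 1.96, 6.59 and 8.16 on NWD1, and 19.9 and 8.88 on NWD2. Rtp4, Xaf1 and Ifi44 had their highest value in NWD2 replicate 1 and their second highest in AIN76A replicate 1.

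Mx1, a dynamin-like GTPase of which many laboratory strains carry a nonfunctional allele, rested on few counts. It had 10 and 3 counts on AIN76A, 11, 28 and 10 on NWD1, and 83 and 38 on NWD2. Mx2 was at 0.476 to 1.57 CPM. Lgals3bp varied little, at 714 and 615 CPM on AIN76A, 480, 533 and 589 on NWD1, and 687 and 720 on NWD2. All 3 NWD1 libraries were below both of AIN76A.

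The GTPases guard against intracellular pathogens and are induced mostly by interferon gamma. Gbp3 measured 2.74 and 1.31 CPM on AIN76A, 1.34, 2.2 and 3.45 on NWD1, and 5.82 and 3.52 on NWD2. With total-count scaling its value in NWD2 replicate 2 was below that of NWD1 replicate 3. Igtp was at 39.1 and 27.7 CPM on AIN76A, 17.3, 39.9 and 66.3 on NWD1, and 65.8 and 46.4 on NWD2. Irgm1 was at 89.3 and 47.5 CPM on AIN76A, 40.6, 42.1 and 47.8 on NWD1, and 90.9 and 42.6 on NWD2. Its 2 high values came from 1 library of each of those diets. Gbp6 and Gbp7 were under 8 CPM and Gbp2 under 2 CPM in every library. Of antigen processing, Psmb8, an immunoproteasome subunit, was at 98.4 to 168 CPM and Tap1, the peptide transporter, at 42.1 to 94.4.

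**Figure D1:**
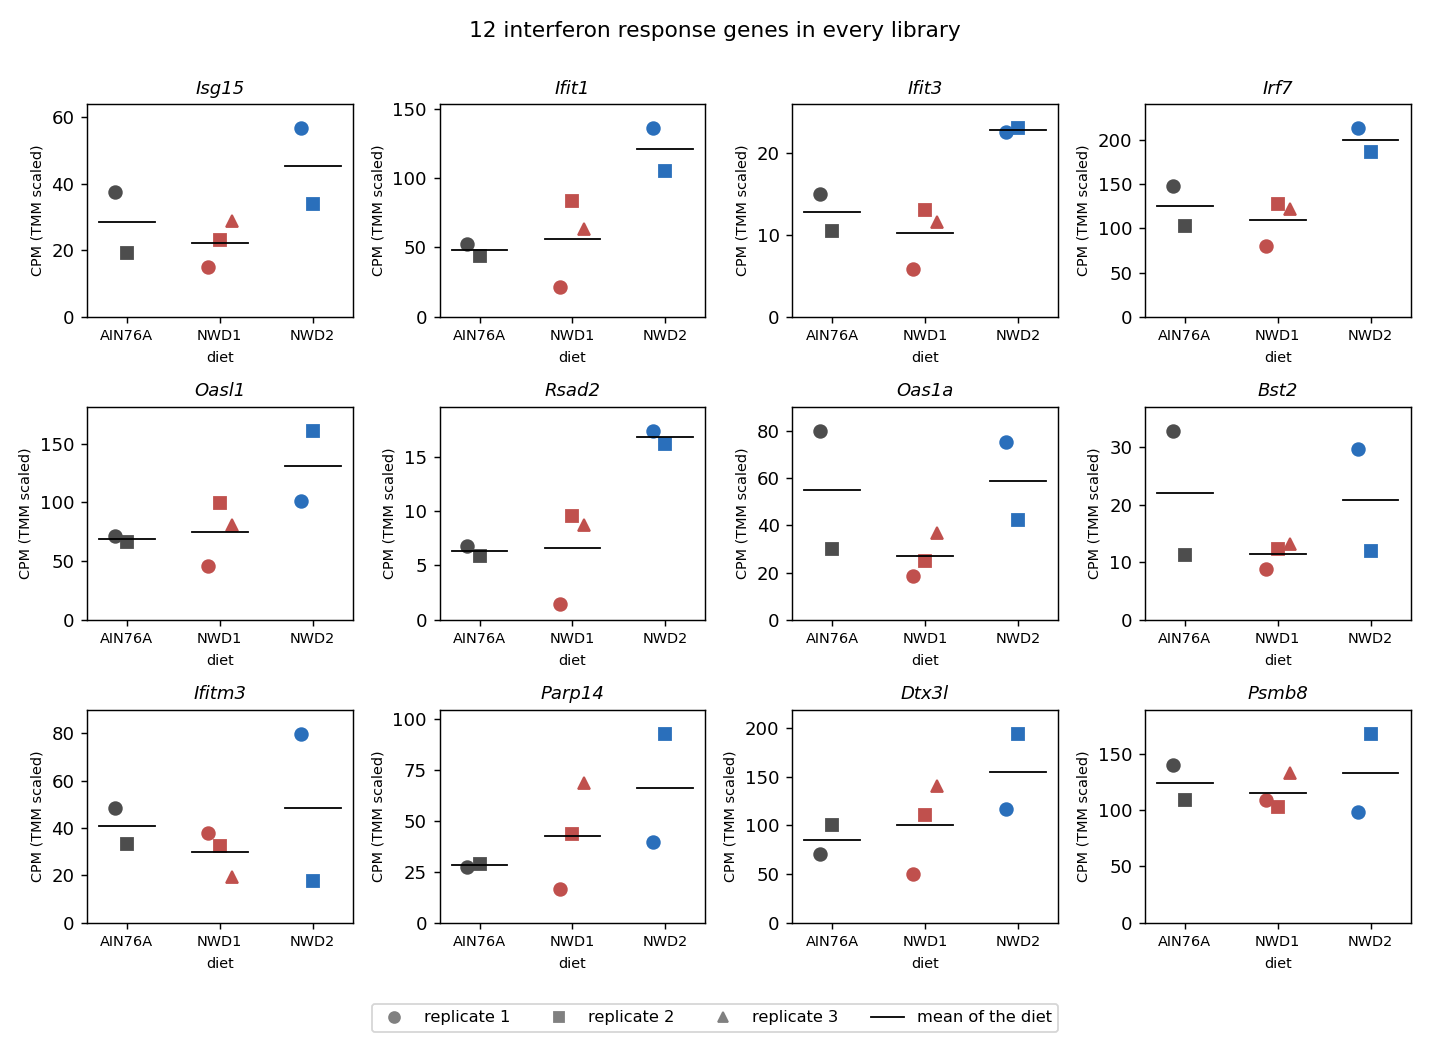
CPM (TMM scaled, linear axes from 0) of 12 interferon response genes in the 7 libraries by diet, with each symbol a library, its shape the replicate number and the line the mean of the diet. Ifit1, Ifit3, Irf7, Oasl1 and Rsad2 have both NWD2 libraries above the other 5 (with total-count scaling Ifit3, Irf7 and Rsad2 only), whereas Isg15, Oas1a, Bst2 and Ifitm3 have AIN76A replicate 1 and NWD2 replicate 1 above the other 5.

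Of the 41 measured members, 8 had both NWD2 libraries above the other 5: Gbp3, Ifit1, Ifit3, Irf7, Oas3, Oasl1, Oasl2 and Rsad2. That order held for 3.88% of all 14626 genes tested. With total-count scaling 3 had it, namely Ifit3, Irf7 and Rsad2, against 1.08% of all genes. In 10 members AIN76A replicate 1 and NWD2 replicate 1 were above the other 5, a pattern chosen after the values were seen, which held for 7.83% of all genes. These 10 were Bst2, Dhx58, Eif2ak2, Ifi44, Ifitm3, Irgm1, Isg15, Oas1a, Rtp4 and Xaf1. With total-count scaling it was again 10, against 5.87% of all genes, with Lgals3bp in place of Eif2ak2.

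Single libraries carried much of the pattern. NWD2 replicate 1 had the highest CPM of the 7 for 20 of the 41 members, against 8.35% of all genes tested. NWD2 replicate 2 had the highest for 14, and for 23.1% of all genes. NWD1 replicate 3 was highest for 4 members (12% of all genes) and AIN76A replicate 1 for 3 (21.6%). With total-count scaling NWD2 replicate 1 was highest for 22 members (9.71% of all genes), NWD2 replicate 2 for 6 (8.1%) and NWD1 replicate 3 for 10 (18.5%). AIN76A replicate 2, NWD1 replicate 1 and NWD1 replicate 2 were highest for none with TMM scaling, while over all genes their shares were 6.13%, 11.6% and 17.3%.

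NWD1 replicate 1 had the lowest CPM for 34 of the 41 members, against 12.6% of all genes, and with total-count scaling for 31, against 6.42%. AIN76A replicate 2 was lowest for 3 members (6.67% of all genes), NWD2 replicate 2 for 2 (22.3%), NWD2 replicate 1 for 1 (8.18%) and NWD1 replicate 2 for 1 (16.4%). AIN76A replicate 1 and NWD1 replicate 3 were lowest for none, with 15.6% and 18.4% over all genes. On the log2(CPM + 1) scale, the median member lay 0.58 above its mean over the libraries in NWD2 replicate 1 and 0.32 above it in NWD2 replicate 2. In NWD1 replicate 1 it lay at -0.73 and in AIN76A replicate 2 at -0.33. The remaining 3 libraries lay at 0.03 to 0.14, and the median of all genes tested lay between -0.02 and 0.01 in every library.

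**Figure D2:**
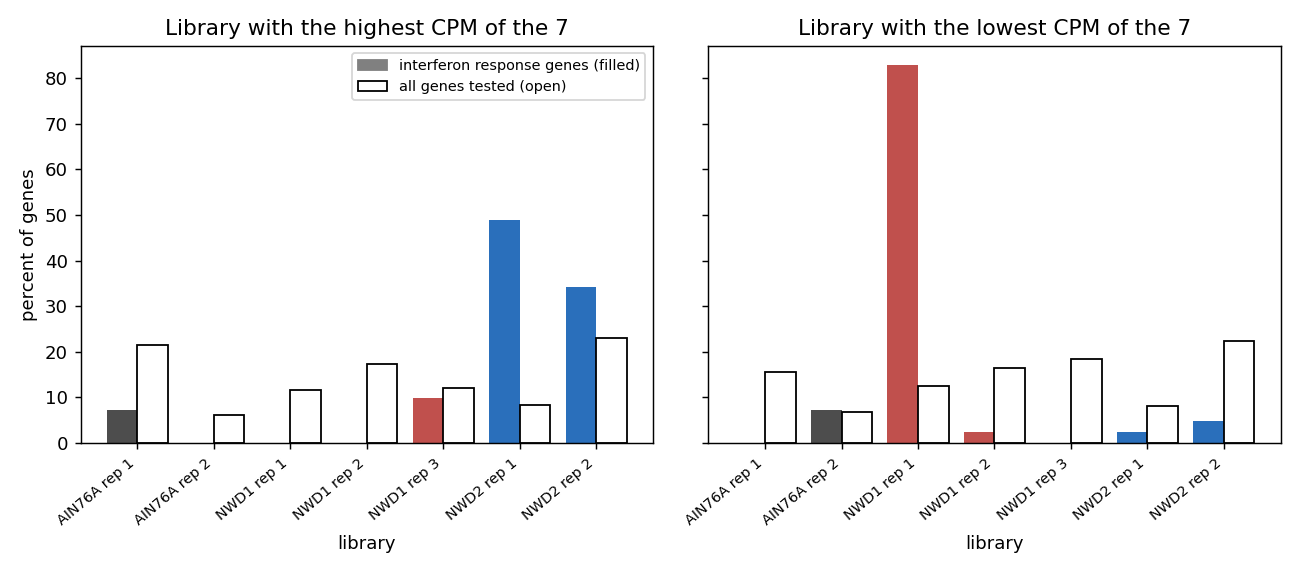
Percent of the 41 measured interferon response genes (filled bars) and of all 14626 genes tested (open bars) at which each library has the highest (left) or the lowest (right) CPM of the 7. NWD2 replicate 1 is highest for 48.8% of the interferon response genes and NWD1 replicate 1 lowest for 82.9%.

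**Figure D3:**
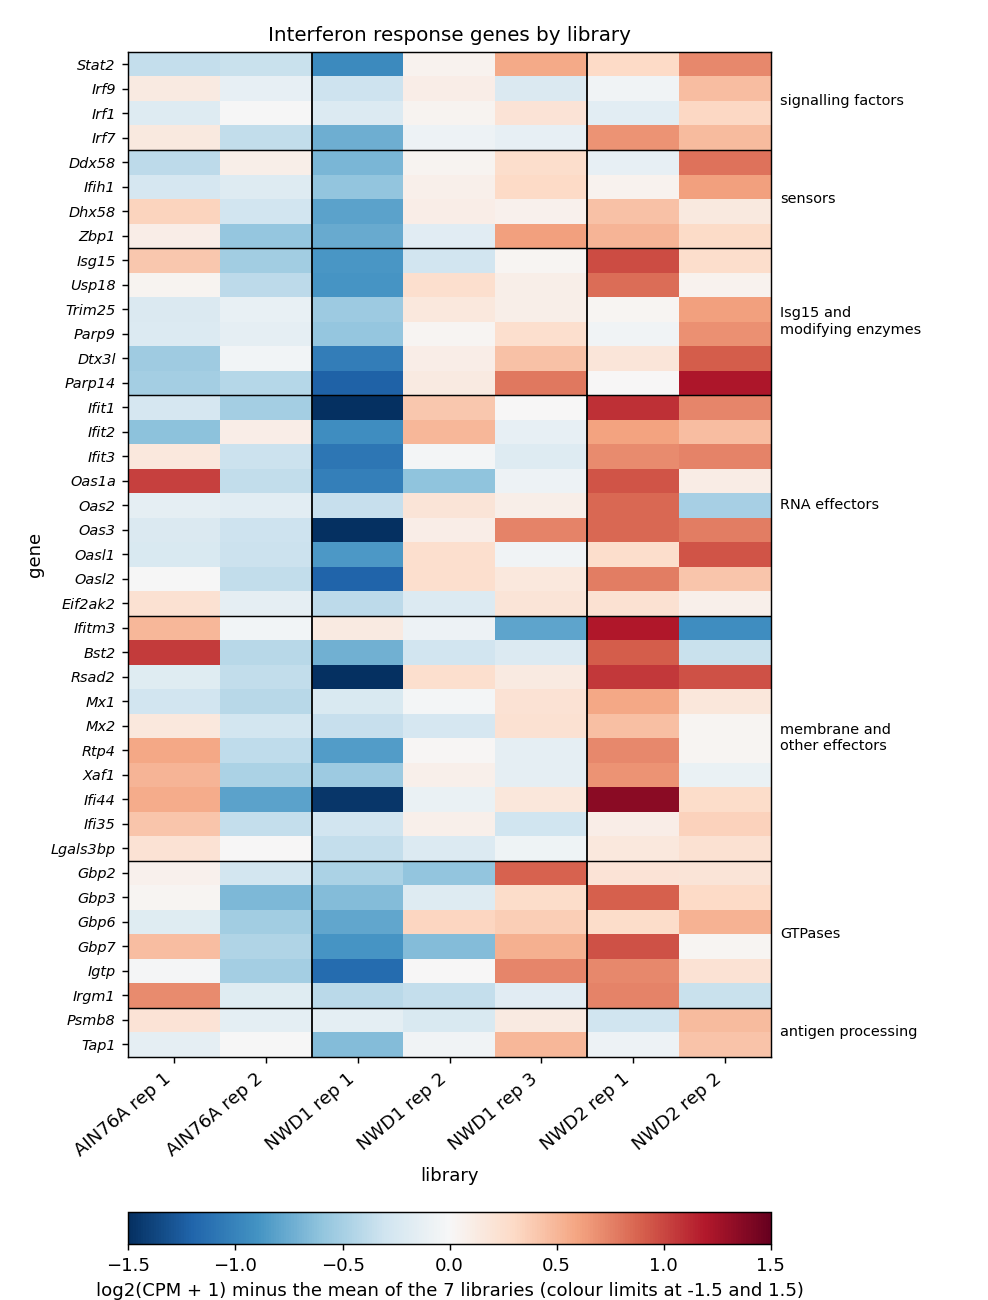
Heatmap of log2(CPM + 1) minus the mean of the 7 libraries for the 41 measured interferon response genes (one a line, grouped by role) in each library (columns, diets separated by lines), with colours limited at -1.5 and 1.5. NWD1 replicate 1 is blue for nearly the whole column, and the red of NWD2 replicate 1 lies mainly in RNA effectors, membrane effectors and GTPases.

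Libraries of the same diet also differed. NWD1 replicate 1 was the lowest of its diet for 37 of 41 members (33.4% of all genes), and was below both AIN76A libraries for 36 (28.4%). AIN76A replicate 1 was above replicate 2 for 31 of 41 members, against 49% of all genes, and in all 6 GTPases and all 10 membrane and other effectors. NWD2 replicate 1 was above replicate 2 for 25 members, against 51.8% of all genes. With total-count scaling the AIN76A count was 28, against 41.2% of all genes, and the NWD2 count 29, against 70.1%. The NWD2 count was then near the share of all genes. The split by role is given with TMM scaling. The members divided by role, with 7 of 9 RNA effectors, 8 of 10 membrane and other effectors and 5 of 6 GTPases higher in replicate 1, but 3 of 4 signalling factors, 4 of 6 genes of the Isg15 group and both antigen processing genes higher in replicate 2.

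Transcript length was set beside the ratio of the NWD2 libraries. The 25 members that were higher in replicate 1 had a median longest transcript of 2682 bases, and the 16 that were higher in replicate 2 one of 3872. Spearman's rho between length and the log2 ratio of replicate 2 over replicate 1 was 0.35 over the 41 members and 0.14 over 14130 genes with a length. For the ratio of AIN76A replicate 2 over replicate 1 it was 0.51 over the members and 0.38 over those genes. These are correlations across genes within pairs of libraries, and genes are not independent replicates. The members' ratios had the same sign in the pairs of both diets for 33 of 41, against 53.0% of all genes. The part of length in the differences between diets was not tested.

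**Figure D4:**
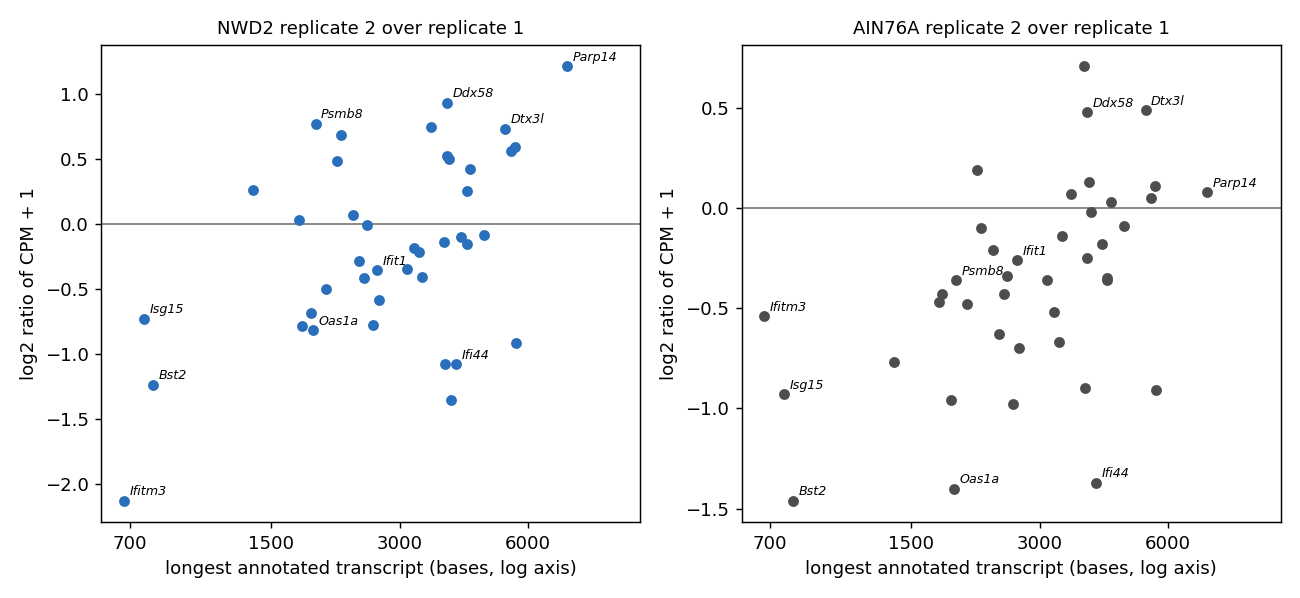
Log2 ratio of CPM + 1 between the 2 libraries of NWD2 (left) and of AIN76A (right) against the longest annotated transcript in bases (log axis), with each point 1 of the 41 measured interferon response genes. Short transcripts such as Ifitm3, Bst2 and Isg15 lie below 0 in both plots, and Parp14, Dtx3l and Ddx58 above 0. These are examples, and other members lie the other way. Ifi44 (4064 bases) lies at -1.08 in NWD2 and -1.37 in AIN76A, and Irf1 (2137 bases) at 0.48 and 0.19.

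Whether NWD1 differed from AIN76A was the first comparison of diets. The members were divided, with 23 of 41 higher in NWD1 and a median log2 fold change of 0.06 (range -1.04 to 1.65), beside 50.6% of all genes tested with a positive fold change and a median of 0.01. Of the 41, 1 (Mx1) had all NWD1 libraries higher, against 11.4% of all genes, and 1 (Lgals3bp) all lower, against 8.62%. None passed an adjusted p under 0.05, nor did any gene (0% of all tested). At an unadjusted p under 0.05 there was 1 member, Oas1a, against 3.42% of all genes, and in DESeq2 also 1, against 4.53%.

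The 8 members of smallest p had adjusted p of 0.878 to 0.886 in edgeR's quasi-likelihood test. Oas1a had a log2 fold change of -1.04 (SE 0.46), Bst2 of -0.94 (SE 0.50), Irgm1 of -0.65 (SE 0.37), Rtp4 of -0.47 (SE 0.39) and Lgals3bp of -0.32 (SE 0.26). Mx1 had 1.65 (SE 0.77), Parp14 0.60 (SE 0.55) and Gbp6 0.59 (SE 0.56). The values for Oas1a, Bst2, Irgm1 and Rtp4 lean on AIN76A replicate 1. Without that library Bst2 had 0.02 and Rtp4 0.10. By role the medians ran from -0.31 for the membrane and other effectors, of which 8 of 10 were lower, to 0.24 for the GTPases. Without NWD1 replicate 1 the median over the members was 0.30, and without NWD1 replicate 3, which also confines the comparison to index N503, it was -0.22 with 10 of 41 higher.

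Nearly all members were higher in NWD2 than in AIN76A, though none passed the test. The fold change was above 0 for 39 of 41, against 47.4% of all genes tested, and the exceptions were Bst2 at -0.08 and Irgm1 at -0.04. The median log2 fold change was 0.62, or 1.54-fold, with a range of -0.08 to 2.74, beside -0.03 for all genes. When libraries were scaled by total counts alone, 36 of 41 were above 0 with a median of 0.55, beside -0.15 for all genes. Both NWD2 libraries were above both AIN76A libraries for 21 members, against 13.2% of all genes, and below them for 0, also against 13.2%. With total-count scaling they were above for 18, against 8.59% of all genes.

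No member passed the adjusted p in edgeR, nor did any of the genes tested (0%). The count at an unadjusted p under 0.05 was 3 of 41 (Mx1, Ifit1 and Oasl1), against 3.83% of all genes. In DESeq2 it was 6 of 41, against 4.81% of all genes. Mx1 had a log2 fold change of 2.74 (SE 0.80, edgeR adjusted p = 0.969). The other 7 had an edgeR adjusted p of 0.996. Ifit1 was at 1.32 (SE 0.52), Rsad2 at 1.41 (SE 0.69) and Parp14 at 1.23 (SE 0.60). Gbp3 was 2.3-fold higher, with an SE of 0.57 on the log2 scale. Oasl1 was at 0.93 (SE 0.39), Ifit3 at 0.84 (SE 0.41) and Irf7 at 0.67 (SE 0.33).

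By role, the RNA effectors had a median of 0.84 with 9 of 9 above 0. The GTPases were at 0.79 (5 of 6), the Isg15 group at 0.68 (6 of 6), the sensors at 0.58 (4 of 4) and the signalling factors at 0.45 (4 of 4). The membrane and other effectors were at 0.25 (9 of 10), and the antigen processing genes at 0.19 (2 of 2). The median over all members was 0.90 without AIN76A replicate 1, 0.44 without AIN76A replicate 2, 0.46 without NWD2 replicate 1 and 0.68 without NWD2 replicate 2. All AIN76A libraries carried index N503 and all NWD2 libraries N504, so no comparison within an index was possible. With an index term, which rests on NWD1 replicate 3 alone, the median was 0.04 with 25 of 41 above 0, beside 0.07 for all genes.

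In NWD2 against NWD1 the fold change was above 0 for 41 of 41 members, against 53.5% of all genes. The median was 0.63, or 1.55-fold (range 0.08 to 1.38), beside 0.05 for all genes. Scaled by total counts alone, 38 of 41 were above 0 with a median of 0.37, beside -0.19 for all genes. This comparison and the one before it share the NWD2 libraries and are not independent. Both NWD2 libraries were above all 3 NWD1 libraries for 15 members, against 10.8% of all genes, and below them for 0, against 14.5%. With total-count scaling they were above for 3 (Ifit3, Irf7 and Rsad2), against 2.45% of all genes. No member and no gene passed the adjusted p in edgeR (0% of all tested). The count at an unadjusted p under 0.05 was 6 of 41, against 7.89% of all genes. In DESeq2 it was 8 of 41, against 9.4% of all genes.

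Ifit3 had a log2 fold change of 1.17 (SE 0.37, edgeR adjusted p = 0.527) and Irf7 of 0.87 (SE 0.29, edgeR adjusted p = 0.545). The edgeR adjusted p of the other 6 ran from 0.567 to 0.654. Isg15 was at 1.03 (SE 0.39), Oas1a at 1.13 (SE 0.46) and Oasl1 at 0.80 (SE 0.35). Ifit1 was 2.15-fold higher, with an SE of 0.46 on the log2 scale. Rsad2 was at 1.36 (SE 0.61) and Ifi44 at 1.38 (SE 0.64). By role the medians were 0.80 for the RNA effectors, 0.75 for the membrane and other effectors, 0.63 for the Isg15 group, 0.55 for the GTPases, 0.45 for the sensors and for the signalling factors, and 0.20 for antigen processing.

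The low NWD1 replicate 1 carried part of this difference. Without it the median was 0.34 with 38 of 41 above 0, and without NWD1 replicate 3 it was 0.85. Within index N504, where NWD1 had replicate 3 alone, both NWD2 libraries were above it for 18 of 41 members, against 35.3% of all genes, and below it for 4, against 29.8%. The 4 were Gbp2, Igtp, Tap1 and Zbp1. With total-count scaling the counts were 8 above, against 18% of all genes, and 10 below, against 43.5%. With an index term the median was 0.35 with 33 of 41 above 0, beside 0.10 for all genes.

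**Figure D5:**
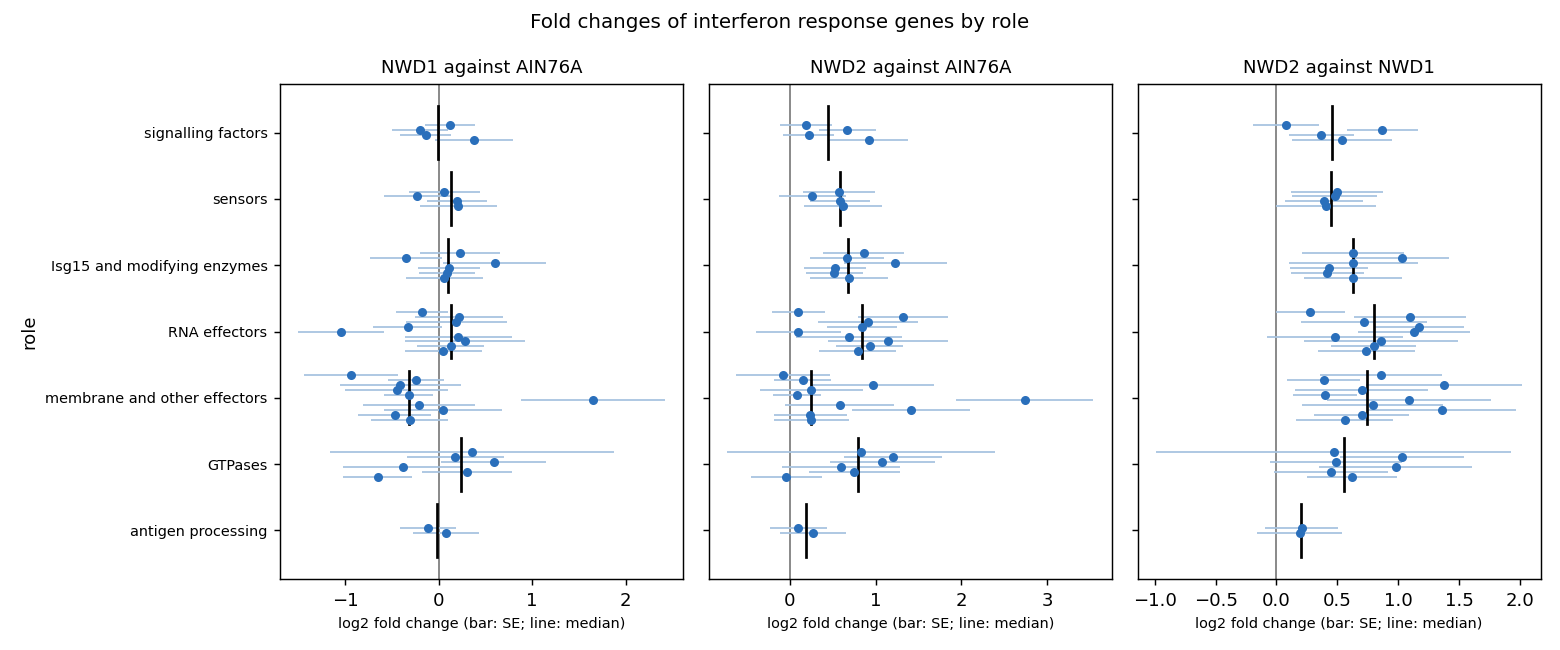
Log2 fold change (horizontal axis) of the 41 measured interferon response genes in the 3 comparisons of diets, by role, with each point a gene, its bar the SE and the black line the median of the role. In both NWD2 comparisons nearly all points lie right of 0, with medians of 0.84 and 0.80 for the RNA effectors and of 0.19 and 0.20 for antigen processing, and none passed the adjusted p.

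The response element core was set beside the fold changes. In NWD2 against AIN76A, 17 of the 19 genes with a match were above 0 with a median of 0.67, and 12 of the 12 measured members without one with a median of 0.26. Against NWD1 the medians were 0.86 and 0.48, and in NWD1 against AIN76A 0.05 and -0.03. These are medians with no test, over windows that leave out 11 members.

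The other genes of the pathway were taken from lists of 101 genes, of which 100 were found. Of 15 interferon ligands none passed the filter, and 13 had 0 counts in every library. The other 2, Ifnk and Ifna13, had 14 counts in all. A count of 0 allows up to 3 counts, or 0.0385 to 0.214 CPM depending on the library. No ligand transcript was therefore counted beyond these few, which says nothing of ligand made by other cells. How reads shared between similar ligand genes were counted is not given, and that bound does not cover their loss.

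All 9 genes of the receptor and kinase list were measured, with Ifnar1, a chain of the type I receptor, at 29.8 to 60.3 CPM, and Ifnlr1, the specific chain of the lambda receptor, at 6.95 to 19.6. In NWD2 against AIN76A 8 of 9 were above 0 with a median of 0.30, and against NWD1 4 of 9 with a median of -0.04. Of all genes tested, 47.4% and 53.5% were above 0 in these comparisons, and 50.6% in NWD1 against AIN76A. The list of 12 further signalling factors and brakes was divided, with 5 above 0 against AIN76A and 8 against NWD1, at medians of -0.07 and 0.04. Of 10 measured sensing adaptors, 9 and 6 were above 0, with medians of 0.37 and 0.16.

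Of 13 genes of MHC class I presentation, 7 were above 0 in NWD2 against AIN76A (median 0.25) and 11 against NWD1 (median 0.19). H2-K1, a classical class I heavy chain, was at 2364 CPM in NWD2 replicate 2 and at 1142 to 1911 elsewhere. With total-count scaling its highest value was in NWD1 replicate 2 instead. Of 35 measured further interferon targets, 24 were above 0 against AIN76A and 28 against NWD1, with medians of 0.42 and 0.38. In NWD1 against AIN76A the counts above 0 were 8 of 9 receptors and kinases, 7 of 12 signalling factors, 8 of 10 adaptors, 4 of 13 genes of MHC class I and 20 of 35 targets. None of the genes in these lists passed the adjusted p in edgeR in any comparison. At an unadjusted p under 0.05 there were at most 3 of a list, beside 3.42% to 7.89% of all genes by comparison. Of the 3 list genes of smallest p in NWD2 against AIN76A, Aim2, a sensor of cytosolic DNA, was at 0.257 to 1.09 CPM with its lowest values in NWD2. Samd9l, an antiviral translation inhibitor, was at 40.7 and 51.6 CPM on AIN76A, 39.8, 73.6 and 88.3 on NWD1, and 52.6 and 145 on NWD2. Herc6, the mouse Isg15 ligase, was at 12.6 and 12.2 CPM on AIN76A, 8.68, 19 and 31.7 on NWD1, and 22.9 and 29 on NWD2.

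Markers of other cell types also differed in level between the libraries. Of 20 measured leukocyte markers, 16 were above 0 in NWD2 against AIN76A (median 1.49), 18 in NWD1 against AIN76A (1.37) and 10 in NWD2 against NWD1 (-0.04). Of all genes tested, 47.4%, 50.6% and 53.5% were above 0. Their summed level over the list of 22 was 183 to 389 CPM on AIN76A, 93.4 to 377 on NWD1 and 74.1 to 113 on NWD2. Of that sum Cd74, which crypt epithelium can also express, made up 28.4 to 343 CPM. Without Cd74 the sum was 43 to 46.8, 36.5 to 75 and 38.8 to 53 CPM. Ptprc was at 3.94 and 2.59 CPM on AIN76A, 5.75, 1.51 and 5.11 on NWD1, and 1.17 and 1.48 on NWD2, the lowest values. Other leukocyte genes ran the other way. At an unadjusted p under 0.05 there were 7 of the 20 in NWD2 against AIN76A, 7 in NWD1 against AIN76A and 3 in NWD2 against NWD1. The shares of all genes tested were 3.83%, 3.42% and 7.89%. The 7 in NWD2 against AIN76A were Cd7, Cd8a, Gzmb, Laptm5 and Tyrobp, with fold changes above 0, and Cd74 and Rac2, with fold changes below 0. Laptm5 and Gzmb are given as examples chosen after their values were seen. Laptm5 was at 0.018 and 0.121 CPM on AIN76A, 0.352, 0.935 and 2.19 on NWD1, and 0.495 and 1.11 on NWD2. The cytotoxic lymphocyte gene Gzmb was at 0.198 and 0.29 CPM on AIN76A, 0.186, 2.68 and 2.19 on NWD1, and 1.76 and 2.27 on NWD2. Both genes were thus higher on NWD2 than on AIN76A in all 4 libraries, at low levels.

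Of 12 villus enterocyte markers, 11 were above 0 in NWD2 against AIN76A (median 0.47), and the list's sum was 60445 to 66599 CPM on AIN76A, 47780 to 86991 on NWD1, and 62876 and 122842 in NWD2. The high sum belonged to NWD2 replicate 2. All 7 enteroendocrine and all 5 tuft cell markers were below 0 in that comparison (medians -1.73 and -1.48), and also in NWD2 against NWD1 (medians -1.71 and -1.57). At an unadjusted p under 0.05 there were 7 and 4 of them against AIN76A (3.83% of all genes), and 7 and 5 against NWD1 (7.89%). All 5 Paneth and 4 of 5 goblet cell markers were below 0 in NWD2 against AIN76A (medians -1.12 and -0.71), and 3 of 5 of each against NWD1 (medians -0.14 and -0.09). The stroma and endothelium list summed to 2.14 to 9.91 CPM. The stress gene Hspa1b was at 64.3 CPM in NWD2 replicate 1 and at most 9.69 elsewhere, while the list of 6 dissociation stress genes summed to 66.7 to 140 CPM on AIN76A, 94.1 to 295 on NWD1, and 159 and 176 on NWD2. The part of these cell types and of stress in the interferon response genes was not tested.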

How the data were processed

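RNA of sorted cells was amplified with SMART-Seq v4 and made into paired-end Nextera XT libraries, per the labels' protocols, which keeps no strand. Deposited counts are integers for each Ensembl ID, and the deposited TPM, which sum to 1000000 a column, were used only for levels per length. Per the submitters' processing notes the tools were STAR 2.4.2a, HTSeq 0.6.1 and edgeR, and the build mm9. The annotation used for counting is not given in the sources used here. Because mm9 was not at hand, gene coordinates are not printed, and promoter windows are RefSeq's on GRCm38.p6. Of the TPM columns, 1 that matches no sample was not used.

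The test was edgeR 4.0.16's quasi-likelihood test, run in R 4.3.3 on TMM-scaled libraries after filterByExpr by diet, with the robust option. One model of diet alone held all 7 libraries, leaving 4 residual degrees of freedom and a biological coefficient of variation of 0.363. The test was also run on simulated counts, whose outcome is not given here, so its power at the members' fold changes is not stated. Adjusted p (Benjamini-Hochberg, called under 0.05) are over all 14626 genes tested. SEs are the fitted log2 fold change divided by the root of F. An exact two-sided permutation test of 1 gene cannot go below p = 0.333 with 2 against 2 libraries, or 0.2 with 3 against 2, so none was used. Fold changes are printed for the 8 measured members of smallest p in each comparison, and for members outside that set only as single exceptions, chosen after their values were seen.

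The members, roles, lists and tests were chosen with earlier results of these data known. The alternatives were DESeq2 1.42.0 size factors or its Wald test, total counts as scaling (added after seeing the data), no filter, a term for replicate number, for sex or for i5 index, fits of 2 diets at a time, and each library left out in turn. One gene of the pathway lists is not reported here by name.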

Additional observations from a re-analysis of the deposited data

How the results depend on the processing

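No gene was called by adjusted p in the 3 comparisons, in the order NWD1 against AIN76A, NWD2 against AIN76A and NWD2 against NWD1. Without the filter on low counts 85, 190 and 384 of all genes were called, and 0, 1 and 4 of the interferon response genes: Ifit1 at 1.35 in NWD2 against AIN76A (edgeR adjusted p = 0.0372), and Oas1a at 1.16, Ifit1 at 1.13, Rsad2 at 1.39 and Ifi44 at 1.41 in NWD2 against NWD1 (edgeR adjusted p of 0.0261 to 0.0427). The cause was not tested. DESeq2's Wald test called 1, 52 and 180 genes, none of them a member. In NWD2 against AIN76A, 6 genes were called with only those 2 diets in the fit and 1 with an i5 index term, and 2 in NWD2 against NWD1 with that term. Leaving out libraries gave 0 to 1 in NWD2 against NWD1, the 1 without NWD2 replicate 2. Replicate numbers are not said to pair the libraries, and correlations of same-numbered deviations over all genes were -0.0129 to 0.246. Among the 41 members, the log2 ratios of replicate 2 over replicate 1 in AIN76A and in NWD2 correlated at 0.65 (Pearson), beside 0.08 over all genes. Whether libraries were paired was not tested. A replicate block called 1 gene in NWD2 against AIN76A, left 5 of 41 members above 0 in NWD1 against AIN76A with Parp14 at -0.11, and changed no call of a member. In that comparison a sex term left 15 above 0 and an i5 term 10, and leaving out libraries gave 10 to 32, with Bst2 at -1.52 to 0.02 and Rtp4 at -0.88 to 0.10. In NWD2 against AIN76A an i5 term left 25 of 41 above 0 and a median of 0.04. Of 360 fold changes of named members under alternatives, 352 kept their direction and side of the threshold. None of these members was called in the main fit, so only a reversed sign or a new call could lower that count. The size of the fold changes was not part of it. Parp14 in NWD2 against AIN76A fell to 0.04 with an i5 term and still counted as kept.

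Total-count scaling moved the median of all genes to 0.11, -0.15 and -0.19 in the 3 comparisons. It also left 3 in place of 15 members with both NWD2 libraries above all 3 of NWD1, whereas DESeq2 size factors left that count at 15. The absence of calls does not show that levels were alike. Gbp2, Mx1 and Mx2 rest on few counts, and NWD1 replicate 3 has the fewest. Sex, index and replicate 3's heading cannot be told apart from single NWD1 libraries.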
